A study of Mus musculus with 4 samples.

Results

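The developmental pluripotency-associated (Dppa) genes Dppa2, Dppa3, Dppa4 and Dppa5a were followed in single cells of the fetal mouse ovary. These 4 genes, chosen by name, are among 19321 measured genes. Gonads of XX embryos of the C57BL/6 strain, with no genetic change or treatment in the labels, were profiled with 10x Chromium 3′ version 2 chemistry on 4 daily stages from E11.5 to E14.5. Each stage is a single library, so stage and library cannot be told apart, cells are not replicates, and no test was run. The number of embryos in a library is not given in the sources used here. Levels are unique molecular identifiers (UMIs) pooled over the cells of a class and scaled to the UMI total of that class, in the usual CPM unit of sequencing counts. Intervals are exact 95% intervals and cover counting error only.

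A cell counted as a germ cell when at least 3 of the germ cell markers Dazl, Ddx4, Dnd1, Mael and Mov10l1 had a UMI. A cell counted as somatic when none of the 5 had one and fewer than 5% of its UMIs came from erythroid genes. This gave 166, 590, 718 and 2379 germ cells and 4105, 3660, 3367 and 1567 somatic cells in stage order, of 18970 cells kept. Germ cells were 3.46%, 12.46%, 15.1% and 50.7% of the cells kept. The median germ cell held 32248, 27904.5, 24937.5 and 15562 UMIs in the same order. The median somatic cell held between 9936 and 13747 UMIs. Cell names shared a barcode with another library in 354 cells, of which 57 were germ cells.

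The marker rule missed germ-like cells at the early stages. At E11.5 the 83 cells with exactly 2 of the 5 markers had 2852 CPM of Dppa5a and 828 CPM of Dppa3. The 61 cells with 3 markers had 2860 CPM of Dppa5a and 777 CPM of Dppa3. At E14.5 the 98 cells with 2 markers had 76.2 CPM of Dppa5a against 655 CPM in the 289 cells with 3. Cells with 1 or 2 markers (446, 466, 641 and 662 by stage) were therefore kept out of the somatic class.

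The Dppa genes were named as a group for transcripts that mark pluripotent cells, and only Dppa2 and Dppa4 are close relatives by sequence. Those proteins carry a DNA-binding SAP domain, bind each other on chromatin, and in embryonic stem cells act upstream of the transcription factor Dux. Dppa3, also called Stella or PGC7, is a classical marker of primordial germ cells and, as a maternal protein, protects the egg-derived genome from loss of DNA methylation. Dppa5a, also called Esg1, is a small RNA-binding protein with a KH domain. Primordial germ cells carry part of the pluripotency programme into the gonad. In the XX gonad they leave it as they enter meiosis, which needs Stra8, a gene induced by retinoic acid.

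In the GENCODE M21 annotation of the GRCm38 assembly, all 4 members are protein-coding genes. Dppa4 lies at chr16:48283733-48294237 and Dppa2 at chr16:48303908-48319723, both on the plus strand with 9670 bases between them. They have at most 7 and 8 exons. Dppa3 lies at chr6:122626410-122630272 on the plus strand, with up to 4 exons. Dppa5a lies at chr9:78367052-78368177 on the minus strand, with 3 exons. The annotated pseudogenes Dppa5b and Dppa5c share 97.0% of 297 aligned bases with the Dppa5a transcript, and Dppa3-ps shares 98.2% of 451 bases with Dppa3. How reads that match a gene and its pseudogene were counted is not given in the sources used here, so the Dppa3 and Dppa5a counts are uncertain to that extent.

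All 4 members were germ cell transcripts at every stage. At E11.5 the germ cell level exceeded the somatic level 298-fold for Dppa2, 215-fold for Dppa3, 179-fold for Dppa4 and 173-fold for Dppa5a. At E14.5 the same ratios were 77.3-fold, 65.8-fold, 59.4-fold and 62.3-fold. The rule of size used here calls a gene when 2 groups hold at least 50 UMIs of it together, the higher has at least 20 CPM, the ratio is at least 2 and the Poisson intervals do not overlap. By that rule all 4 members were higher in germ than in somatic cells at each stage. The same call was made for 11.7% of the genes meeting the minimums at the first stage, and for 14.2%, 17.5% and 16.7% at the following stages.

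**Figure D1:**
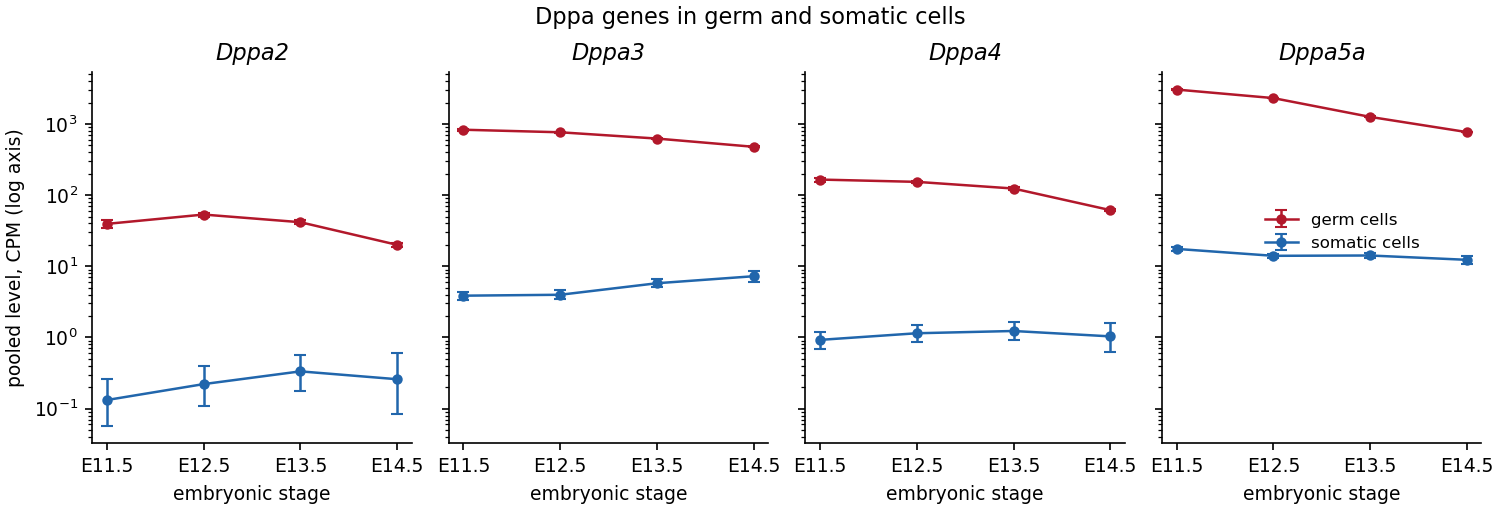
Pooled level of each Dppa gene (CPM, log axis) by embryonic stage in germ cells (red) and somatic cells (blue), 1 library per stage. Points are pooled values and bars exact 95% Poisson intervals. Germ cell levels of Dppa5a go from 3040.4 CPM at the first stage to 768 CPM at the last, and somatic levels lie at 17.5 CPM or lower throughout.

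Dppa2, the member with the fewest UMIs, was the only one of the 4 that was higher at E12.5 than at E11.5. Its germ cell level was 39.4 (34.4 to 45.0), 53.3, 41.6 and 20.01 CPM in stage order. The difference between E12.5 and E11.5 was 0.44 on the log2 scale (0.22 to 0.65), against a median of 0.05 over all genes meeting the minimums. E13.5 and E11.5 are neighbours in the order of levels and their counting intervals overlap, while E12.5 lies above and E14.5 below both. The last step, into E14.5, was -1.06 (-1.20 to -0.91).

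Dppa4, the partner of Dppa2, was at 165, 153, 124 and 61.5 CPM in stage order. Its E11.5 and E12.5 levels differed by -0.11 (-0.22 to 0.00) on the log2 scale, an interval that reaches 0. From E13.5 to E14.5 the level was 2.01-fold lower, at -1.01 (-1.09 to -0.93). Dppa2 and Dppa4 thus had their widest step at the same interval, as did Dppa3 (-0.38). Dppa2 and Dppa4 were the members called at least 2-fold lower in that step, as were 2.36% of the genes meeting the minimums. Both lie just inside the limit. Dppa4 missed it with a rule of 2 markers (-0.996) or 4 markers (-0.971), with doublets kept (-0.996) and at a common minimum of UMIs (-0.990), and Dppa2 with a rule of 4 markers (-0.968).

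Dppa3 was at 829, 763, 623 and 477 CPM in stage order, with no overlap between the counting intervals of neighbouring stages. Its steps were -0.12, -0.29 and -0.38 on the log2 scale, the last being the widest. Over the whole period it was 1.74-fold lower, the smallest ratio among the members. Dppa5a was at 3040.4, 2307, 1256 and 768 CPM, with steps of -0.40, -0.88 and -0.71. Its widest step was from E12.5 to E13.5, before the widest step of the other members. No member was called at least 2-fold lower from E11.5 to E12.5 or from E12.5 to E13.5, where 0.245% and 0.568% of the genes meeting the minimums were.

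From E11.5 to E14.5 the log2 difference was -0.98 (-1.19 to -0.76) for Dppa2, -0.80 (-0.84 to -0.75) for Dppa3, -1.43 (-1.54 to -1.32) for Dppa4 and -1.99 (-2.01 to -1.96) for Dppa5a. Dppa5a was 3.96-fold lower and Dppa4 2.69-fold lower, and both were called, as were 8.5% of the genes meeting the minimums. Dppa2 lay just outside the limit of 2 with a 1.97-fold lower level, and passed that ratio with a mean over cells (-1.18). The median of all genes meeting the minimums was 0.27 in the same comparison, and the scaling by a median of ratios, which removes such a shift, shifted every gene by -0.24 and gave the members -1.21, -1.03, -1.66 and -2.22. Under it Dppa2 and Dppa3 also passed the ratio of 2, and the genes called over the whole table went from 488 lower and 1287 higher to 724 lower and 852 higher. Stra8 had 0 UMIs in E11.5 germ cells, which allows up to 0.537 CPM, and 1.98, 135 and 921 CPM at the later stages.

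Single germ cells had lower medians at E14.5 and a wider spread relative to their mean. Dppa5a had a median of 28.9 UMIs per 10000 UMIs of the cell at the first stage, then 21.2, 11.46 and 6.34. Its lowest and highest cells were 11.02 and 96.7 at E11.5 and 0 and 36.2 at E14.5. The SD of Dppa5a over cells fell with its mean, from 11.03 to 4.72, while its coefficient of variation was 0.37, 0.38, 0.46 and 0.67 in stage order. For Dppa3 the medians were 7.74, 7.08, 6.05 and 3.84, and the coefficient of variation was 0.34, 0.35, 0.43 and 0.79. The 95th percentile of Dppa3 was 13.3 UMIs per 10000 at E11.5 and 10.8 at E14.5, where 291 of 2379 cells held none. Cells were shallower at E14.5, and counting noise widens the spread of shallow cells. Its part in these coefficients was not tested.

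**Figure D2:**
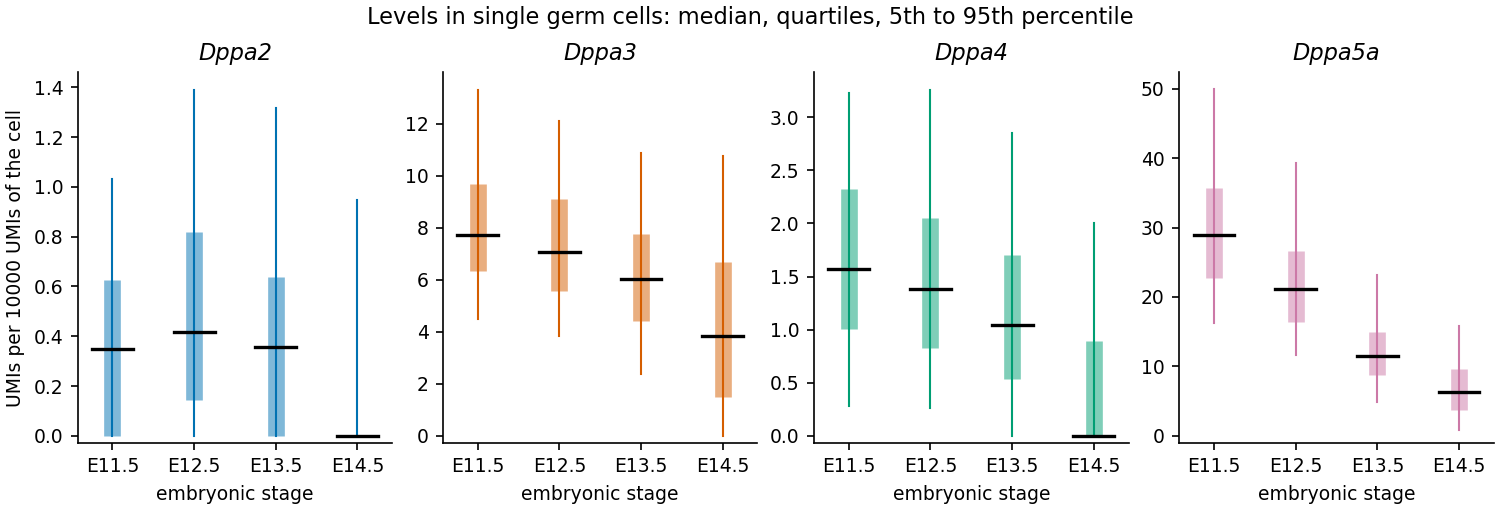
Level of each Dppa gene in single germ cells (UMIs per 10000 UMIs of the cell) by stage, over 166, 590, 718 and 2379 cells. Black lines are medians, thick bars quartiles and thin lines the 5th to 95th percentile. At E14.5 the Dppa2 and Dppa4 medians are 0 and the Dppa3 cells reach from 0 to a 95th percentile of 10.8.

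To compare detection across depths, each germ cell was thinned at random to 5000 UMIs, which left out 0 cells. Dppa5a was then found in 100%, 100%, 98.1% and 89.5% of germ cells in stage order. Dppa3 was found in 98.2%, 96.1%, 93.6% and 73.5%. Dppa4 was found in 56.0%, 53.1%, 43.3% and 23.6%, and Dppa2 in 15.7%, 23.1%, 18.8% and 8.15%. The shares followed the pooled levels, with the Dppa2 share highest at E12.5. Without thinning, the E14.5 shares were 97.5% for Dppa5a, 87.8% for Dppa3, 49.8% for Dppa4 and 22.8% for Dppa2. In somatic cells thinned alike, Dppa5a was found in 6.45% to 7.92% of cells and Dppa3 in 2.36% to 3.19%, at median depths before thinning of 9936 to 13747 UMIs.

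Cells in which no member was found were most frequent at E14.5. In the thinned germ cells, none of the 4 was found in 0 of 166 cells at E11.5, which allows up to 1.81%, and in 0 of 590 at E12.5, which allows up to 0.508%. At E13.5 it was 1 cell, or 0.139%, and at E14.5 143 cells, or 6.01% (5.09% to 7.04%). All 4 were found in 10.8%, 13.2%, 7.38% and 3.07% of cells. Across cells, Spearman's rho of Dppa3 with Dppa5a was 0.46, 0.47, 0.43 and 0.68 in stage order, over 166, 590, 718 and 2379 cells. Dppa2 with Dppa4, the chromatin partners, gave 0.03, 0.19, 0.17 and 0.29, in counts that are 0 in many cells. These cells share a library and their depth varies, so the coefficients are descriptions only. Among cells thinned to equal depth the Dppa3 and Dppa5a coefficients were 0.25, 0.28, 0.20 and 0.47, and those of Dppa2 and Dppa4 0.13, 0.05, 0.04 and 0.12.

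Within E13.5 and E14.5, germ cells were ordered by Stra8. Each cell was placed by its Stra8 UMIs after thinning to 5000 UMIs, in bins of 0, 1, 2 to 3, 4 to 7 and 8 or more, and the levels of the members were pooled from all UMIs. At E13.5 the bins held 477, 110, 80, 42 and 9 cells, and the last was not used for comparison. At E14.5 they held 281, 223, 458, 820 and 597 cells. The cells without a thinned Stra8 UMI were 66.4% of the germ cells at E13.5 and 11.8% at E14.5.

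At E14.5 all 4 members were lower in each higher Stra8 bin, and Dppa2 had the widest range. Dppa2 was at 48.0, 31.3, 22.7, 12.2 and 4.08 CPM from the lowest bin to the highest. It was 11.8-fold lower in the highest bin, a log2 difference of -3.56 (-4.11 to -3.05), resting on 35 UMIs there. The Dppa2 level of the lowest E14.5 bin was above the 39.4 CPM of all E11.5 germ cells, with counting intervals that overlap. That sets a bin against a whole stage of another library. With all UMIs, 57.7% of the cells of the lowest bin and 5.36% of the highest had a UMI of Dppa2.

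Dppa3 was at 781, 628, 574, 379 and 246 CPM over the same bins, a difference of -1.67 (-1.74 to -1.59). Dppa4 was at 119, 79.5, 66.4, 43.1 and 36.1 CPM, a difference of -1.72 (-1.91 to -1.52). Dppa5a was at 1284, 959, 807, 617 and 506 CPM, a difference of -1.34 (-1.40 to -1.29). Dppa5a, which had the widest difference across stages, thus had the narrowest across Stra8 bins at E14.5. Nearly all cells of the highest bin, 97.7%, still held a UMI of Dppa5a. All 4 members were called at least 2-fold lower, as were 7.6% of the genes meeting the minimums, whose median difference was 0.12.

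**Figure D3:**
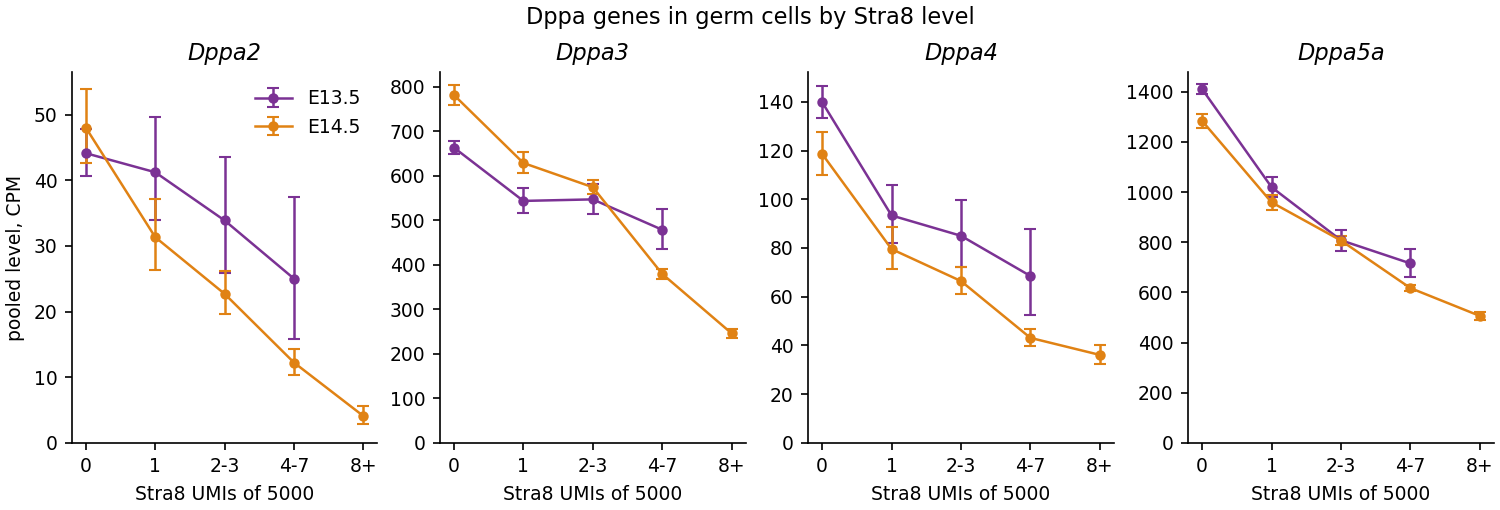
Pooled level of each Dppa gene (CPM) in germ cells binned by Stra8 UMIs after thinning to 5000 UMIs, at E13.5 (purple) and E14.5 (orange). Bars are exact 95% Poisson intervals, and the E13.5 bin of 9 cells is left out. At E14.5 Dppa2 goes from 48.0 to 4.08 CPM and Dppa5a from 1284 to 506 CPM.

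Cell depth and pre-granulosa markers also differed between the bins. At E14.5 the median cell held 20272 UMIs in the lowest bin and 13864 in the highest. Cells with a UMI of at least 3 pre-granulosa markers (the supporting cells that surround the germ cells) were 9.96% of the lowest bin and 2.68% of the highest. At E13.5 the medians were 25964 and 21286 UMIs, and the shares 4.40% and 7.14%. Without such cells the E14.5 differences were -3.44 for Dppa2, -1.76 for Dppa3, -1.67 for Dppa4 and -1.39 for Dppa5a. The part of depth was not tested.

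At E13.5 the members were lower in the bin of 4 to 7 Stra8 UMIs than in the bin of 0. Dppa5a was at 1410.1, 1019, 808 and 715 CPM from the bin of 0 to the bin of 4 to 7, a difference of -0.98 (-1.09 to -0.87). Dppa4 was at 140, 93.3, 85.0 and 68.5 CPM, a difference of -1.03 (-1.42 to -0.67). Dppa2 was at 44.1, 41.2, 33.9 and 25.01 CPM, a difference of -0.82 (-1.49 to -0.22) resting on 23 UMIs in the higher bin. Dppa3 was at 663, 543, 547 and 478 CPM, a difference of -0.47 (-0.61 to -0.33). Dppa4 alone was called at least 2-fold lower, as were 3.12% of the genes meeting the minimums. Dppa4 missed the limit in bins after thinning to 2000 UMIs (-0.78), in 3 equal groups (-0.84), with doublets kept (-0.79) and with a rule of 4 markers (-0.90). Dppa5a lay just outside the limit. It passed the ratio of 2 in bins after thinning to 2000 UMIs (-1.03), with doublets kept (-1.04) and with another random thinning (-1.07). In that other thinning Dppa3 reached -0.77.

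Between E13.5 and E14.5 cells of the same Stra8 bin, Dppa5a differed by -0.21 to 0.00 on the log2 scale over the 4 bins, while the Dppa3 difference changed sign. In the bin of 2 to 3, Dppa5a was at 808 CPM in E13.5 and 807 CPM in E14.5 cells, or 0.00 on the log2 scale (-0.08 to 0.08). In the bin of 0, Dppa5a was at 1410.1 and 1284 CPM, or -0.14 (-0.17 to -0.10). Dppa3 was higher at E14.5 in the bin of 0, at 781 against 663 CPM, or 0.24 (0.18 to 0.29). In the bin of 4 to 7 it was lower at E14.5, at 379 against 478 CPM, or -0.33 (-0.48 to -0.19). The Dppa2 interval held 0 in the bin of 0, at 0.12 (-0.09 to 0.33), and Dppa2 was lower at E14.5 in the bin of 4 to 7, at -1.03 (-1.67 to -0.33), with -0.40 and -0.58 in the bins between. Dppa4 was lower at E14.5 in all 4 bins, by -0.24, -0.23, -0.36 and -0.67, and its interval held 0 in the bin of 1. The bins are not exact matches, since Stra8 itself was 32.3 CPM at E13.5 and 115 CPM at E14.5 in the bin of 0, and 723 and 1082 CPM in the bin of 4 to 7.

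A second order of the same cells used the summed thinned UMIs of 12 meiosis genes, among them the synaptonemal complex genes Sycp1 and Sycp3, the cohesin Smc1b and the recombinase Dmc1. This order was chosen after the data had been seen, and Stra8 is not on the list. Cells were divided into 5 groups of equal size, numbered from 1 (fewest such UMIs) to 5. At E14.5 Dppa2 was at 41.1, 25.3, 15.9, 6.08 and 1.08 CPM from group 1 to group 5. That is a 38.3-fold lower level, or -5.26 (-6.58 to -4.20) on the log2 scale, resting on 7 UMIs in 476 cells. Dppa2 again had the widest range of the 4 members.

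Dppa3 was at 758, 609, 454, 287 and 109.8 CPM over these groups, or -2.79 (-2.90 to -2.68). Dppa4 was at 106, 72.2, 52.8, 39.7 and 14.9 CPM, or -2.82 (-3.14 to -2.52). Dppa5a was at 1181, 878, 695, 531 and 342 CPM, or -1.79 (-1.85 to -1.72). In group 5 a UMI of Dppa5a was still found in 91.4% of cells, of Dppa3 in 56.7%, of Dppa4 in 15.1% and of Dppa2 in 1.47%, with no thinning and a median depth of 13145.5 UMIs. The pluripotency factor Pou5f1 (Oct4) was 283 CPM in group 1 and 48.1 CPM in group 5, or -2.56 (-2.73 to -2.39), between Dppa5a and Dppa3.

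**Figure D4:**
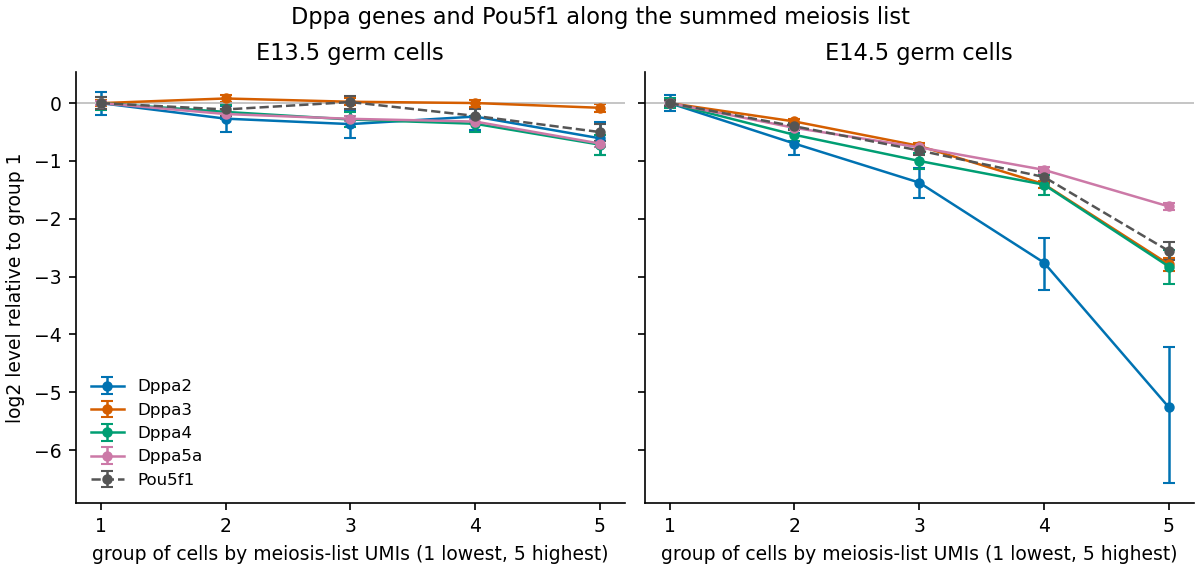
Log2 level of each Dppa gene and of Pou5f1 (dashed) relative to group 1 of 5 equal groups of germ cells ordered by thinned UMIs of 12 meiosis genes, at E13.5 (143 or 144 cells a group) and E14.5 (475 or 476). Bars are the exact 95% Poisson intervals of each group's own count. At E14.5 Dppa2 reaches -5.26 and Dppa5a -1.79, and at E13.5 Dppa3 ends at -0.08.

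At E13.5 the same order separated Dppa3 from the other members. Dppa3 was at 619 CPM in group 1 and 585 CPM in group 5, or -0.08 (-0.17 to 0.01), an interval that holds 0. Dppa5a was at 1501 and 925 CPM, or -0.70 (-0.76 to -0.64). Dppa4 differed by -0.72 (-0.93 to -0.51) and Dppa2 by -0.61 (-0.96 to -0.26). The difference by Stra8 bins at this stage was wider than by this list for all 4 members. It was -0.47 for Dppa3, -0.82 for Dppa2, -1.03 for Dppa4 and -0.98 for Dppa5a, between bins of 42 and 477 cells. Groups 5 and 1 held 144 and 143 cells.

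Among the genes beside the members in the genome, Morc1 downstream of Dppa2 and Nanog and Gdf3 beside Dppa3 were also lower at E14.5. Of 9 listed neighbours, 6 met the minimums between E11.5 and E14.5, with 5 called lower and 1, Mto1, called higher, where 8.5% and 22.4% of all genes meeting the minimums were. Morc1, a germ cell silencing factor, was at 36.2 CPM at the first stage and 7.66 CPM at the last. Nanog, a core pluripotency factor, was at 46.4 and 7.31 CPM, and Gdf3, a TGF-beta family ligand, at 52.5 and 11.3 CPM. Across the E14.5 Stra8 bins 5 neighbours met the minimums. Morc1, Nanog and Gdf3 were called lower and Ddx43 higher, against 7.6% lower and 12.3% higher over all genes. Khdc3 is on this list but lies at chr9:73101836-73104438, not beside Dppa5a, and had 1.67 CPM at E14.5.

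Of 5 listed relatives of Dppa5a with a KH domain, 3 met the minimums from E11.5 to E14.5 and were called lower, against the 8.5% of all genes. The other listed relatives, Khdc3 (1.43 and 1.67 CPM) and Khdc1b (0 UMIs at both stages), did not meet the minimums. The called genes were Khdc1a at 46.2 and 11.4 CPM, Khdc1c at 21.1 and 5.82 CPM, and Ooep, a maternal-effect gene 7931 bases from Dppa5a that is also counted among the neighbours, at 26.2 and 11.2 CPM. Khdc1a was highest at E12.5, at 56.6 CPM.

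Among genes of the DNA methylation pathway that Dppa3 acts on, Uhrf1 was higher where Dppa3 was lower. Of 8 listed genes, 4 met the minimums from E11.5 to E14.5, with 1 called higher and 0 lower. Over all genes meeting the minimums, 22.4% were called higher and 8.5% lower. Uhrf1, the cofactor that brings the maintenance methyltransferase to replicating DNA, was at 7.34, 7.94, 18.4 and 43.8 CPM in stage order. Dnmt1, that methyltransferase, went from 97.8 to 173 CPM between the same stages, under the ratio of 2. Across the E14.5 Stra8 bins Uhrf1 was at 22.0 CPM in the lowest and 68.9 CPM in the highest, opposite to Dppa3, and Tet1, which oxidises methylcytosine, was at 84.7 and 15.7 CPM. Of 8 genes known as targets of Dppa2 and Dppa4 in embryos or stem cells, only Duxf3 is among the measured genes under the listed names. It had 0 UMIs in E11.5, E12.5 and E13.5 germ cells and 3 at E14.5, or 0.0746 CPM.

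Pluripotency factors and primordial germ cell genes were counted in the same comparisons. Of 10 pluripotency factors, 7 met the minimums between E11.5 and E14.5 and 3 were called lower, namely Nanog, Utf1 and Zfp42. Pou5f1 went from 137 to 176 CPM, a log2 difference of 0.37 (0.26 to 0.48), opposite in sign to all 4 Dppa genes. The shift of -0.24 under scaling by a median of ratios keeps its sign. Across the E14.5 Stra8 bins all 7 pluripotency factors that met the minimums were called lower, with Pou5f1 at 299 and 100.1 CPM. Across the E13.5 bins 4 of 8 were. Of 8 primordial germ cell genes, 4 of 6 were called lower between stages, 5 of 6 across the E14.5 bins and 2 of 7 across the E13.5 bins. Of 12 meiosis genes, 10 of 10 were called higher between stages, 11 of 11 across the E14.5 bins and 6 of 8 across the E13.5 bins. Over all genes meeting the minimums, 22.4%, 12.3% and 5.12% were called higher in these 3 comparisons. Those called lower were 8.5%, 7.6% and 3.12% in the same order.

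No member was among the 5 genes most like another member. Likeness was Pearson's r of log2 (CPM + 5) over 11 germ cell groups, namely E11.5, E12.5 and the 9 Stra8 bins of at least 20 cells, among 6437 genes. The groups share libraries, so r is a description. The 5 genes most like Dppa2 were Ap3b2, Cox8a, Cox7b, Cd24a and Ccna2, with r between 0.98 and 0.99. Those most like Dppa3 were Hnrnpa3, Eef1e1, Apex1, Bub3 and Phb. Those most like Dppa4 were Arpc1b, Utf1, Eif4ebp1, Shmt1 and Pmm1, and those most like Dppa5a were Pvrl2, Serp1, Slc25a4, Tomm40 and Cdk4. Dppa3 was the member nearest to Dppa2, with r of 0.94 at rank 112, and its partner Dppa4 came at rank 199 with r of 0.91. Dppa2 and Dppa5a were the least alike pair, with r of 0.75.

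Somatic cells held a low level of every member, at most 1.68% of the germ cell level of the same library. At E11.5 the somatic level was 0.335% (0.143% to 0.672%) of the germ level for Dppa2, 0.466% for Dppa3, 0.559% for Dppa4 and 0.577% for Dppa5a. At E14.5 it was 1.29% (0.419% to 3.03%), 1.52%, 1.68% and 1.604%. At E11.5 the Dppa3 and Dppa5a intervals, 0.407% to 0.531% and 0.542% to 0.614%, do not overlap. The germ cell genes Stra8 and Pou5f1 stood at 1.34% and 1.70% at E14.5. The percentage was thus higher at E14.5 for the 4 members and for Pou5f1 (0.725% at E11.5). With cells of 1 or 2 markers counted as somatic, the percentage of each of the 4 members was instead lower at E14.5. Stra8 had no UMI in either class at E11.5 and so no percentage there. For the meiotic cohesin Smc1b the percentage was 1.31% (0.947% to 1.76%) at E11.5 and 1.25% (1.11% to 1.41%) at E14.5, intervals that overlap. It was 0.733% at E12.5 and 0.800% at E13.5. The germ cell level of Smc1b went from 62.0 CPM at E11.5 to 1214 CPM at E14.5. Germ cells were 3.46% of the cells kept at E11.5 and 50.7% at E14.5, and the part of free germ cell RNA in these UMIs was not tested. Expression of the members by somatic cells was not tested either, and the somatic values are not read as such.

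**Figure D5:**
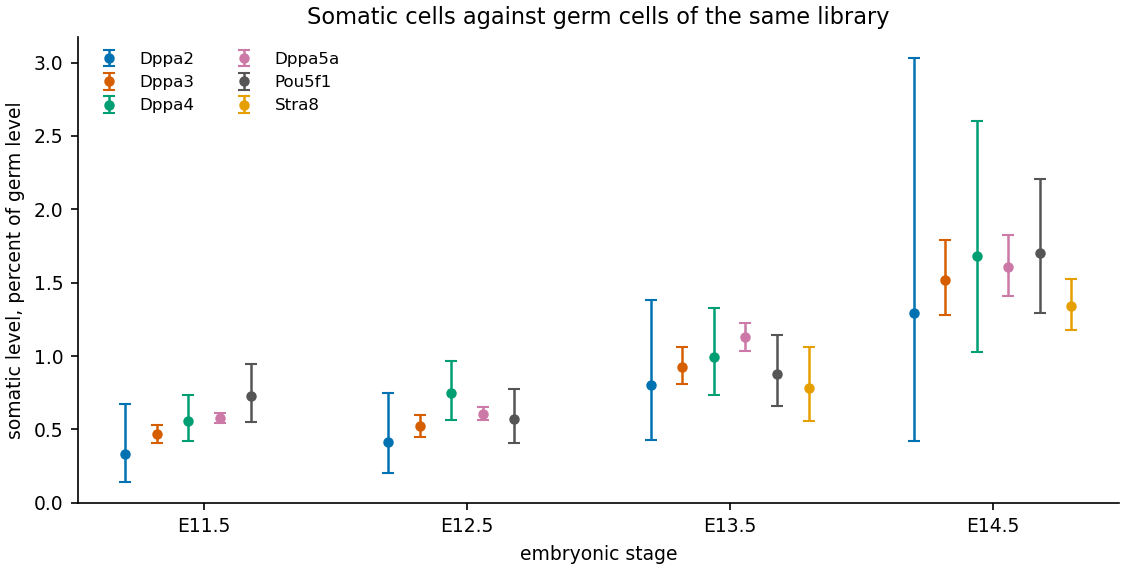
Pooled somatic level as a percentage of the germ cell level of the same library, for the 4 Dppa genes, Pou5f1 and Stra8, by stage. Bars are exact 95% intervals, and points resting on under 5 somatic UMIs are left out. The percentages lie between 0.335% and 0.725% at E11.5 and between 1.29% and 1.70% at E14.5.

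Dppa3 was the member whose somatic level was higher at the last stage beyond its interval. Its somatic level was 3.86, 3.98, 5.78 and 7.25 CPM in stage order, a log2 difference of 0.91 (0.60 to 1.22) between E14.5 and E11.5, against -0.80 in germ cells. It turned to -2.35 when cells with 1 or 2 germ cell markers were counted as somatic, which takes in germ-like cells at E11.5. Dppa5a was at 17.5, 14.02, 14.2 and 12.3 CPM, or -0.51 (-0.72 to -0.31). Dppa4 lay between 0.924 and 1.23 CPM and Dppa2 between 0.132 and 0.334 CPM, the latter on 5 to 13 UMIs a stage.

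A few E11.5 somatic cells held many UMIs of Dppa5a. Dppa5a was at 41.9 CPM (34.7 to 50.3) in the 156 endothelial-like cells, against 15.8 CPM in pre-granulosa-like, 14.47 CPM in interstitial-like and 16.7 CPM in mesothelial-like cells. The 36 somatic cells that met no class had 78.3 CPM. Of the 4105 somatic cells, 4 held at least 5 UMIs of Dppa5a, up to 65 in a cell, and these carried 11.1% of the somatic Dppa5a UMIs. Of these 4 cells, 2 were endothelial-like, with 74 UMIs together, and 1 met no class, with 39. Without the cells with at least 5 UMIs of any member, the level was 15.4 CPM (11.1 to 20.8) in endothelial-like cells, 12.2 CPM in cells of no class and 15.6 CPM in all somatic cells. From E12.5 on, the Dppa5a level of endothelial-like cells was 12.1, 13.7 and 9.72 CPM, within the intervals of the other classes or near them. At E13.5 and E14.5 no somatic cell held 5 UMIs of a member. Dppa1, another gene of this name, had 0 UMIs in germ cells of all 4 stages.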

How the data were processed

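The deposited table holds natural log values, which the authors made as ln(1 + UMIs / UMIs of the cell × 10000); this was read from the values. All values above 0 (100%) were whole multiples of their cell's smallest value at a tolerance of 0.001, and in all 19387 cells they added up, so UMI counts were recovered and used in place of the counts that had been planned for. Per the submitters' processing notes, Cell Ranger 2.2.0 and mm10 were used; the roles of cell calling, filters and normalization are not given in the sources used here. The libraries held 4916, 4842, 4842 and 4787 cells and 80377418, 78223391, 69458291 and 72506090 UMIs.

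Cells with over 20% mitochondrial UMIs (3, 1, 1 and 0) were removed, as were doublets called by Scrublet in scanpy 1.11.5 (120, 105, 95 and 94, or 1.96% to 2.44%, at an assumed rate of 6%). Somatic classes ("-like") rest on at least 3 detected markers of a type per cell. UMIs were pooled by class and library with exact Poisson intervals. Log2 ratios carry the interval of the exact binomial split and shares Clopper-Pearson intervals. Where no UMI was seen, the bound that 3 counts give is printed. Values were computed with numpy 2.4.6, scipy 1.17.1 and pandas 2.3.3. Counts are 3′ tags, not per length, so levels are not compared between genes.

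Named genes are the 4 members and Stra8, up to 8 genes of each list by UMIs in germ cells, and the 5 genes most like each member. The members and lists were chosen with earlier results of these data known. Alternatives were a germ rule of 2 or 4 markers, other depths, scalings, means over cells, and kept doublets or erythroid-like cells. Those chosen after seeing the data were the 5 groups by meiosis genes, another seed for the bins, expected shares, and leaving out germ cells with erythroid UMIs, pre-granulosa markers (by Stra8) or shared barcodes, and somatic cells with 5 or more UMIs of a member.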

Additional observations from a re-analysis of the deposited data

Results flagged for a closer look

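Dppa3 was 0.91 on the log2 scale (0.60 to 1.22) higher at E14.5 than at E11.5 in somatic cells and -0.80 (-0.84 to -0.75) in germ cells, so the 2 classes of the same libraries went opposite ways. With 1 library per stage the difference between the classes was not tested. The somatic level rests on 234 UMIs at E11.5 and 140 at E14.5, and stood at 0.466% and 1.52% of the germ cell level of its own library. Without somatic cells holding 5 or more UMIs of a member the somatic log2 difference was 1.04. With cells of 1 or 2 germ cell markers counted as somatic it turned to -2.35, the same direction as in germ cells. That wider class takes in germ-like cells at E11.5, where the 83 cells with 2 markers had 828 CPM of Dppa3. The 98 such cells at E14.5 had 36.8 CPM.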

How the results depend on the processing

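Of 371 values recomputed under an alternative, 263 stayed within the counting interval of the reported value (for counts of genes, within 1.5 times), and 108 left it, 3 of them with a change of sign; the intervals are narrow where UMIs are many. In germ cells every alternative run kept the E14.5 level of each member under its E11.5 level. Scaling by a median of ratios gave -1.21 for Dppa2, -1.03 for Dppa3, -1.66 for Dppa4 and -2.22 for Dppa5a. A mean over cells gave -1.18 for Dppa2, -0.89 for Dppa3, -1.55 for Dppa4 and -2.08 for Dppa5a. Dppa3 was -0.85 with a rule of 2 markers and -0.74 without germ cells with pre-granulosa markers. Those cells, with at least 3 such markers, were 32 of 166, 66 of 590, 37 of 718 and 140 of 2379 in stage order. By Stra8, 3 equal groups without thinning gave -0.32 (Dppa3) and -0.81 (Dppa5a) at E13.5 and -1.49, -1.41 and -1.09 (Dppa3, Dppa4, Dppa5a) at E14.5. Thinning to 2000 UMIs gave -1.54, -1.38 and -1.01 for the same 3 at E14.5, and no Dppa2 value, since the highest bin then held 28 cells and 0 UMIs of it. Kept doublets, which also redraw the thinning, gave -1.59 (Dppa3) and -1.28 (Dppa5a) at E14.5, and another seed -0.77 (Dppa3, E13.5) and -1.42 (Dppa5a, E14.5). Without pre-granulosa markers Dppa3 was -1.76 at E14.5 and Dppa5a -0.85 at E13.5. The 5 groups by meiosis genes gave -0.0805 (Dppa3) and -0.70 (Dppa5a) at E13.5, and -5.26, -2.79, -2.82 and -1.79 at E14.5.

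Shares of E14.5 germ cells for Dppa2, Dppa3, Dppa4 and Dppa5a were 3.11%, 49.4%, 11.01% and 66.8% at 2000 UMIs and 22.8%, 87.8%, 49.8% and 97.5% with no thinning, as depth sets them. At E11.5, with 166 cells, another seed gave 43.4% for Dppa4 in place of 56.0%, and the expected share over all draws was 53.5%. With cells of 1 or 2 markers counted as somatic, log2 germ over somatic at E14.5 was 5.80 for Dppa3 and 5.57 for Dppa5a. At E11.5 it was 4.51 for Dppa2, 4.25 for Dppa3, 4.41 for Dppa4 and 4.29 for Dppa5a. The somatic difference between E14.5 and E11.5 then changed sign for Dppa2 (-2.62), Dppa3 (-2.35) and Dppa4 (-2.59). Of these only Dppa3 had an interval without 0. That wider class takes in the germ-like cells with 2 markers at E11.5. At a common minimum of 9791 UMIs, log2 germ over somatic at E14.5 was 6.21 for Dppa5a. Genes called lower numbered 488 between E14.5 and E11.5, 172 by Stra8 at E13.5 and 442 at E14.5. These became 99, 18 and 73 at a ratio of 4, and 1267, 269 and 1222 with no minimum. Scaling by a median of ratios gave 262 in place of 172, 269 in place of 133 between E14.5 and E13.5, and 1117 and 1385 in place of 719 and 900 for germ over somatic cells at E11.5 and E12.5. The share of lower among all calls went from 27.5% to 45.9% (E14.5 against E11.5), 38.7% to 57.1% (E13.5 against E12.5), 21.9% to 49.3% (E14.5 against E13.5) and 37.9% to 60.7% (Stra8, E13.5). For germ over somatic cells it went from 72.9% to 58.9%, 66.4% to 51.7% and 59.9% to 48.1% at E11.5, E12.5 and E14.5. The cause of each change was not tested. Differences between libraries of a stage cannot be seen with 1 library each.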

Other observations

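Cells with exactly 2 of the 5 germ cell markers, which entered neither class of the report, held levels of the members near those of germ cells at the early stages, and cells with 1 marker did not. At E12.5 the 71 cells with 2 markers had 52.8 CPM of Dppa2, 668 CPM of Dppa3, 128 CPM of Dppa4 and 2069 CPM of Dppa5a, close to the 55.2, 773, 142 and 2427 CPM of the 142 cells with 3 markers. At E11.5 the 363 cells with 1 marker had 467 CPM of Dppa5a, against 2860 CPM with 3 markers and 17.5 CPM with none. At E13.5 the 573 cells with 1 marker had 31.7 CPM and at E14.5 the 564 such cells had 14.1 CPM, beside 12.3 CPM in cells with none.

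At E14.5 the members were also higher in germ cells with more of the 5 markers. The 289 cells with 3 markers had 11.9 CPM of Dppa2 and 359 CPM of Dppa3, and the 946 cells with all 5 had 25.5 CPM of Dppa2 and 602 CPM of Dppa3. The median cell held 13500 UMIs with 3 markers and 17635.5 with 5, and the part of depth was not tested. Of the 5 markers, Dnd1 was itself at 196 CPM in the lowest E14.5 Stra8 bin and 41.8 CPM in the highest. Dazl, Ddx4, Mael and Mov10l1 were higher in the highest bin. The part of the choice of markers was not tested. At E12.5 the Dppa3 level was 773 CPM with 3 markers and 769 CPM with 5.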
